A study of Homo sapiens with 4 samples.

Results

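The expression of 50 genes whose products build the kinetochore, organise the mitotic spindle and divide the cell was described in human fibroblasts with FOXA2 uninduced and induced. The members were given as symbols, and 1 row per symbol was taken from a table of 63651 rows and 56620 symbols, the row with the highest mean of both columns. All 50 were found, and all 50 reached 1 FPKM or more in at least 1 column. They were chosen by the FPKM values of these same columns, whose difference was already known. Their differences are therefore descriptions, and no test was made of them.

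The cells were BJ-5ta, human foreskin fibroblasts immortalised with telomerase, as a clonal derivative with a FOXA2 gene that doxycycline turns on. FOXA2 is a forkhead transcription factor of endoderm and liver. The uninduced group held 2 samples without doxycycline and the induced group 2 samples with 0.5 µg/ml doxycycline, both carrying the transgene. All were cultured with bFGF, hygromycin B and puromycin, per the labels' protocols. An overnight arrest in G1 with mimosine is also described there without saying which cultures received it, so a part of mimosine in any difference cannot be told apart from that of induction. No culture with the drug but without the transgene was among the samples used here.

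Expression was measured by RNA-seq and is given as FPKM, fragment counts divided by transcript length and by sequencing depth, so that levels can be set side by side between genes. Each group has 1 FPKM value in the table, set between deposited lower and upper confidence bounds, and single samples have none. No SD, n or p-value can be given, and the difference has no replicate check. A gene is said to have fallen or risen only where the bounds of its columns do not overlap. FOXA2 rose from 4.82 FPKM (bounds 0.526 to 9.12) to 104 FPKM (50.2 to 158). All 10 fibroblast markers listed for this line were kept, at 58.1 to 2098 FPKM uninduced and 47.3 to 2111 FPKM induced, with sums of 5739 and 5151 FPKM. By their bounds 0 of the 10 fell and 0 rose, but 3 were at least 2-fold lower in the induced column, as for THY1 (388 and 92.5 FPKM), and 3 at least 2-fold higher, as for COL3A1 (125 and 445 FPKM). The part of these shifts in the members' differences was not tested. Of 28 markers of keratinocytes, endothelium, immune cells and melanocytes, 6 were kept, and the summed levels were 24.7 and 28.8 FPKM for keratinocytes, 0.282 and 0.102 for endothelium, 1.39 and 3.61 for immune cells and 9.42 and 5.25 for melanocytes. Those kept for keratinocytes were KRT10 (16.1 and 10.6 FPKM) and DSP (8.43 and 17.6). The others kept were MITF (8.62 and 3.66 FPKM) and PMEL of melanocytes, and CD14 (0.823 and 2.15) and PTPRC of immune cells. KRT5, CDH5, CD3E and SOX10, a defining marker of each type, were listed at 0 in both columns. They were picked after the values were seen, so these zeros do not show that the cell types were absent. PECAM1 was listed at 0 too, but its row lies on a patch scaffold and not on a chromosome, which limits what that 0 shows.

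At mitosis each pair of sister chromatids is joined at the centromere, a stretch of chromatin marked by the histone variant CENPA. The kinetochore assembles there and holds the ends of spindle microtubules, while the spindle assembly checkpoint delays anaphase until every kinetochore is attached. Separase then cuts cohesin, kinesins and bundling proteins shape the central spindle, and a contractile ring splits the cell. Most of these genes are transcribed mainly in G2 and M phase. Their promoters are known for an element called the CHR (cell cycle genes homology region), TTTGAA in its usual form, close to the transcription start. Complexes of MuvB proteins with the repressors E2F4, RBL1 and RBL2 or with the activators MYBL2 and FOXM1 bind there, and boxes with the letters CCAAT, bound by NF-Y, lie upstream.

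The promoters of 4 members are shown because they carry these elements and belong to genes that fell. They are the 4 with the highest uninduced FPKM among members that fell and whose window holds both kinds of motif. Each is a RefSeq window of 300 bases in GRCh38.p14, from 250 before to 50 after an annotated start, read 5′ to 3′ on the gene's strand; the expression table uses hg19, and the builds were not joined. Capitals mark, on either strand, the CCAAT box, the element TTTGAA and its variant form TTTAAA. Positions give a match's first base on the printed strand, where the base before the start is -1.
PTTG1 (chr5:160421605-160421904, + strand): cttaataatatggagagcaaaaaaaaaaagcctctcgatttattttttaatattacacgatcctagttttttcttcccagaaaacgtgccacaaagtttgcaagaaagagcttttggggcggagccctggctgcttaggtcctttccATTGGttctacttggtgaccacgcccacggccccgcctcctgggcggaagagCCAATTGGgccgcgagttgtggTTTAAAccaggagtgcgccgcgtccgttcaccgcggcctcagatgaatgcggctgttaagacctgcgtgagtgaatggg
PLK1 (chr16:23678639-23678938, + strand): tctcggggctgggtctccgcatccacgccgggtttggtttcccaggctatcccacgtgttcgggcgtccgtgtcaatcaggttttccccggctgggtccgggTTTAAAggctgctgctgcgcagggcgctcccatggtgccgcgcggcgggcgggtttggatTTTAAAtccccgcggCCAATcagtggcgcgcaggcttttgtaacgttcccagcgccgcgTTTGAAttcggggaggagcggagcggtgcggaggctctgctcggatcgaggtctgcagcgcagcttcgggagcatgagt
CDCA8 (chr1:37692266-37692565, + strand): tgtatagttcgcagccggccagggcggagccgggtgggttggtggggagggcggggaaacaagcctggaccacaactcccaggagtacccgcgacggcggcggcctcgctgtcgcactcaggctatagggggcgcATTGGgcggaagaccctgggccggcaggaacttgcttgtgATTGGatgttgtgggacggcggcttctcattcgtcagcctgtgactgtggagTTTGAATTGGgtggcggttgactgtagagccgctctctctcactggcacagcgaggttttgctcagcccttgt
ASPM (chr1:197146620-197146919, - strand): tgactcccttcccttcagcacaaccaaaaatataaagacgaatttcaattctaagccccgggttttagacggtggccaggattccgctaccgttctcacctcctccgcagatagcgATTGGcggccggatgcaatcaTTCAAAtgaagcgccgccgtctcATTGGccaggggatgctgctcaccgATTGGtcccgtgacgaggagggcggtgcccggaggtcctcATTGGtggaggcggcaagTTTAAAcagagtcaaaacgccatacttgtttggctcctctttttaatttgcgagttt
In PTTG1 3 CCAAT matches, of which 2 overlap, precede a TTTAAA at -29. In PLK1 the CCAAT match at -73 is followed by TTTGAA at -29, and 2 further TTTAAA lie upstream. In CDCA8 the TTTGAA at -23 shares a base with the third CCAAT match, at -18. ASPM holds 4 CCAAT matches, a reversed TTTGAA at -113 and a TTTAAA at -7.

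Motifs were counted in every window of the promoter table. Of the 50 members 42 matched, with 47 windows. BUB3, TTK, CENPM, KNTC1, TPX2, RACGAP1, AURKA and BIRC5 had no entry. TTTGAA within 50 bases of the start was present in 28 of 47 member windows (59.6%), against 4.62% of all 35116 windows and 3.17% of the 13736 windows of genes kept in the expression table. TTTGAA or TTTAAA in that place was present in 34 member windows (72.3%, against 5.22% for genes kept). CCAAT anywhere in the window was present in 35 member windows (74.5%, against 34.9%), and 2 or more CCAAT in 19 (40.4%, against 12.3%). CCAAT together with TTTGAA or TTTAAA near the start was present in 25 member windows (53.2%, against 2.2%). These shares describe letters in a window and not binding, and windows of 1 gene can overlap.

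The motifs lay at different distances from the start. The 36 TTTGAA matches of the members had a median position of -17.5, and 30 began between -50 and 45. The 66 CCAAT matches had a median position of -72, and 41 began between -150 and -51. The members without CCAAT in any window included NDC80, NUF2, SKA1 and SKA3 of the outer kinetochore, which hold TTTGAA near the start. BUB1, CENPK, CENPW and SPC24 had 2 or more CCAAT and neither form of the CHR near the start. CENPE and CENPI had neither CCAAT nor a CHR-type match near the start.

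**Figure D1:**
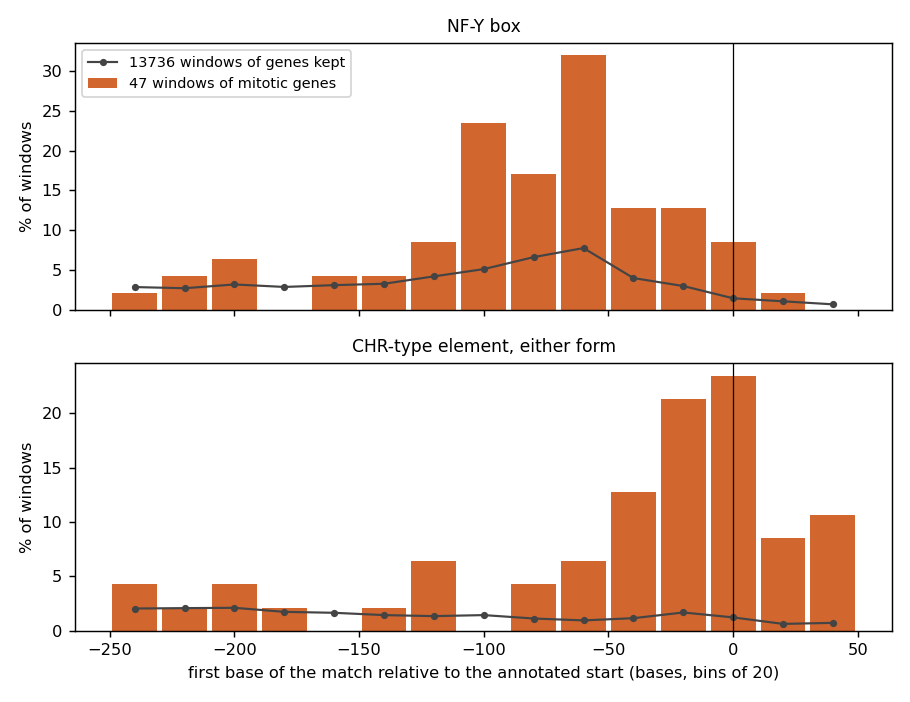
Share of promoter windows (percent, vertical axis) with a match that begins in each bin of 20 bases relative to the annotated start (horizontal axis), for the 47 windows of the mitotic genes (bars) and the 13736 windows of genes kept in the expression table (line). The CCAAT matches (NF-Y box, upper panel) peak in the bin from -70 to -50, at 31.9% against 7.78%, and the CHR-type matches (TTTGAA or TTTAAA, lower panel) in the bin around the start, at 23.4% against 1.23%.

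Nearly the whole set was lower in the induced column. Of the 50 members 49 were below 0 on the log2(FPKM + 1) scale, induced minus uninduced, and 46 were at least 2-fold lower. The median difference was -1.84, with the middle 50% of members between -2.17 and -1.53, beside a median of 0.05 over all 14319 rows kept. Of those rows 46.3% were below 0 and 6.03% at least 2-fold lower. Among the 7855 rows whose uninduced FPKM lay within the range of the members (9.97 to 203), the median was -0.09, 7.09% were at least 2-fold lower and 0.7% fell by their bounds. The median member was at 42.6 FPKM uninduced and 11.6 FPKM induced. The summed FPKM of the members was 2807 uninduced and 758 induced, or 0.507% and 0.157% of all FPKM. In bulk RNA, fewer cells in mitosis and less RNA per dividing cell cannot be told apart.

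By their bounds 11 members fell, 0 rose and 39 overlapped, where 0.454% of all rows kept fell. The 11 were PTTG1, ANLN, PLK1, TPX2, BIRC5, AURKA, BUB1, CDCA8, ASPM, CENPE and KIF14. By a looser criterion, an interval of the difference that leaves out 0, 26 members fell, where 1.11% of all rows did. A call of this kind selects genes with large differences and narrow bounds, so finding both in the members that fell is no separate result. Their median difference was -2.46, against -1.76 for the others. In the uninduced column their upper bounds exceeded the level by 55.3% (median), against 71.6% for the others. The least separated member that fell was TPX2, whose uninduced lower bound (49.8 FPKM) and induced upper bound (49.2) nearly met. The closest pair of bounds that overlapped was that of KIF20B (10.7 and 11.7 FPKM).

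**Figure D2:**
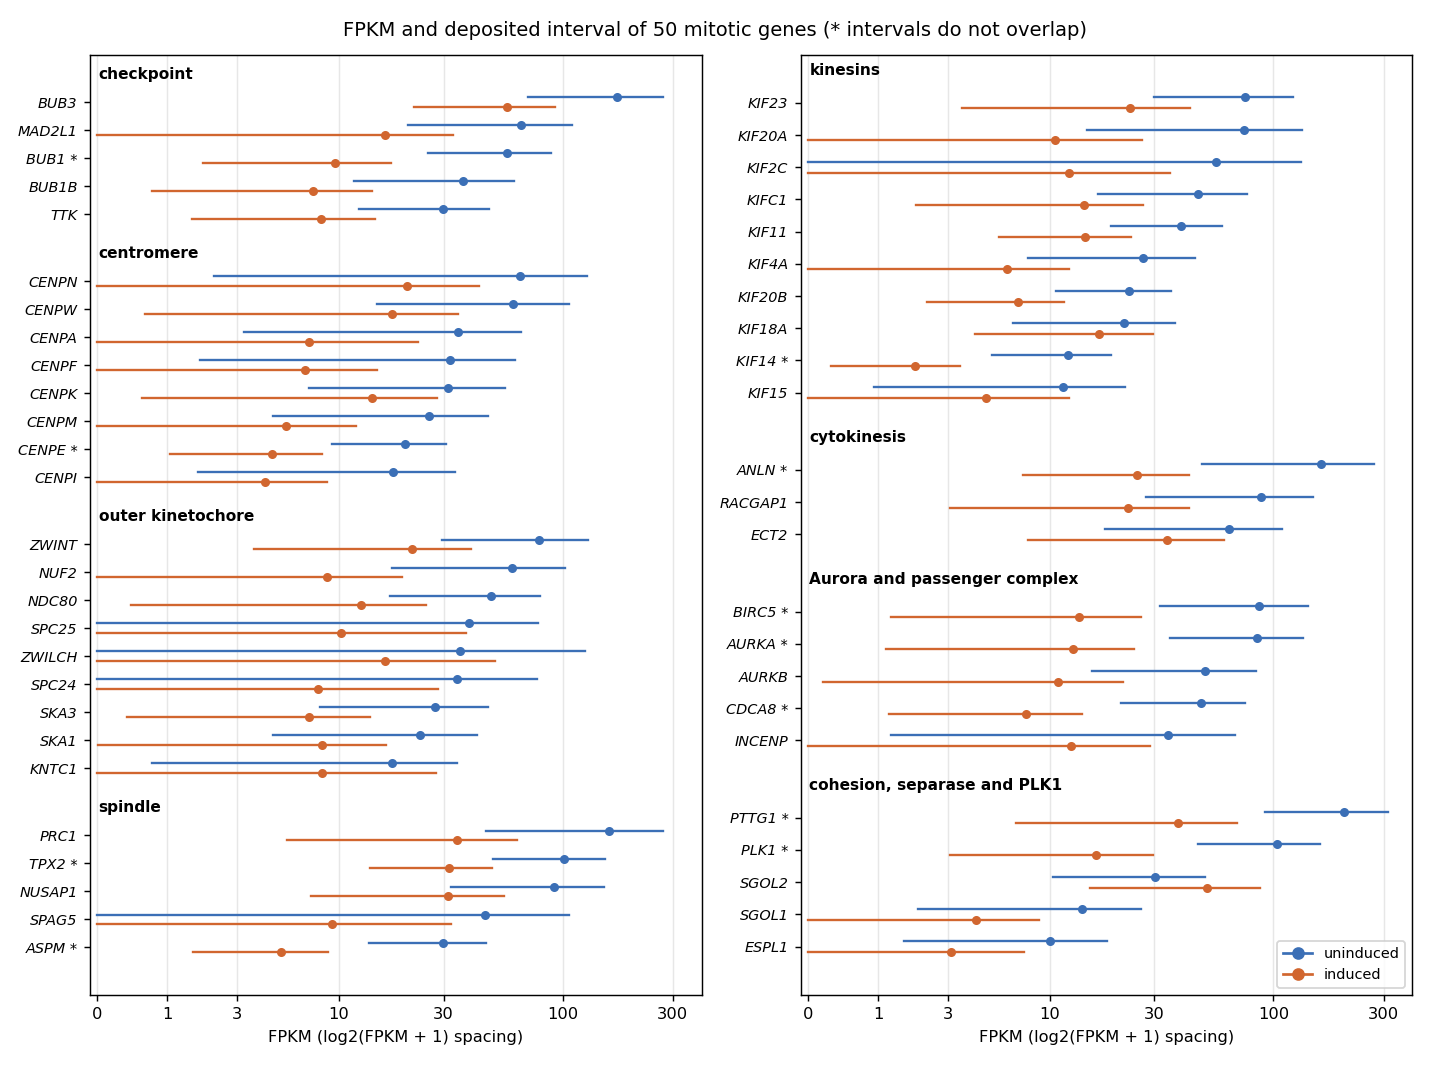
FPKM (horizontal axis, log2(FPKM + 1) spacing) of each of the 50 genes in the uninduced (blue) and induced (orange) column, with the deposited lower and upper bounds as lines, by role. Stars mark the 11 genes whose bounds do not overlap; SGOL2 is the only gene with its induced point to the right.

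Table rows can share a locus span, and reads of neighbours may then be hard to assign. For 18 members at least 1 other kept row had the same span. Of these, 2 fell (ANLN and BIRC5), against 9 of the 32 with a span of their own, while the median difference was -1.97 and -1.83. In the uninduced column the upper bound of ZWILCH lay further above its FPKM, relative to it, than that of any other member (249.9% above), and ZWILCH shares its span with the ribosomal protein gene RPL4 (1064 and 563 FPKM). The library kit did not keep strand, so strand cannot separate reads where PRC1, SGOL1 or SPAG5 overlaps its antisense gene. These antisense genes were PRC1-AS1 (19.2 and 4.58 FPKM), SGOL1-AS1 (2.80 and 1.25) and SPAG5-AS1 (1.11 and 0.697). KIF4B and PTTG2, close copies of KIF4A and PTTG1, were listed at 0 in both columns.

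**Figure D3:**
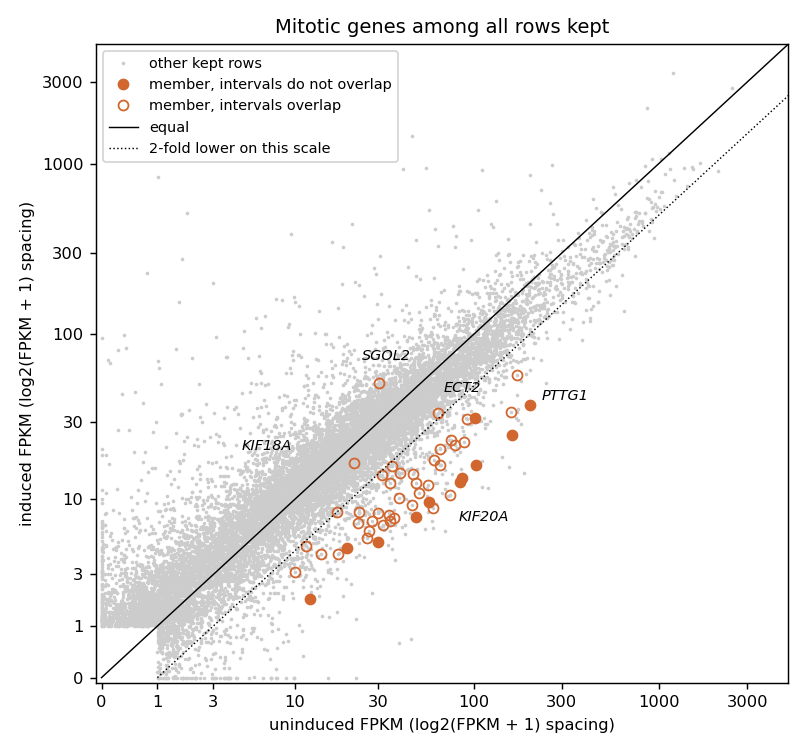
Induced FPKM (vertical axis) against uninduced FPKM (horizontal axis), both with log2(FPKM + 1) spacing, for all 14319 rows kept (grey) and the 50 mitotic genes (orange, filled where the bounds do not overlap). The mitotic genes form a band under the line of 2-fold lower values, apart from KNTC1, which lies on it, and KIF18A, ECT2 and SGOL2 above it.

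Checkpoint genes were lower by a median of -1.94 on the log2 scale, and 1 of 5 fell. BUB1, a kinase that gathers checkpoint proteins at the kinetochore, fell from 57.3 FPKM (bounds 25.6 to 89.0) to 9.58 FPKM (1.84 to 17.3). BUB1B, or BUBR1, part of the complex that inhibits the anaphase-promoting complex, was at 36.7 and 7.503 FPKM. MAD2L1, which is loaded on CDC20 in that complex, was at 65.6 and 16.4 FPKM, and TTK, the kinase that starts the signal, at 29.9 and 8.15. BUB3, the WD-repeat partner of BUB1 and BUBR1, was the most abundant member induced, at 172 and 57.3 FPKM (difference -1.57). By the looser criterion all 5 fell.

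Centromere genes had a median of -1.86, with all 8 at least 2-fold lower, and 1 fell. CENPE, a large kinesin that carries chromosomes along microtubules, fell from 20.1 FPKM (bounds 9.24 to 30.9) to 4.68 FPKM (1.05 to 8.30). CENPA, the centromeric histone, was at 34.6 and 7.19 FPKM, and CENPF, a coiled-coil protein that peaks in G2 and M, at 32.0 and 6.83. Of the constitutive centromere network, CENPI was at 17.8 and 4.27 FPKM, CENPM at 25.9 and 5.52, CENPN at 65.1 and 20.6, CENPW at 60.8 and 17.6 and CENPK at 31.5 and 14.3. CENPK thus had the smallest difference of the group (-1.08) and CENPA the largest (-2.12). In 5 of the 8 the induced lower bound was 0.

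In the outer kinetochore 0 of 9 fell and the median was -1.82. The NDC80 complex is the main microtubule coupler, and its subunits had levels close to each other in each column: NDC80 was at 48.6 and 12.7 FPKM, NUF2 at 60.0 and 8.80, SPC24 at 34.4 and 7.88 and SPC25 at 39.0 and 10.2. The highest of the 4 was 1.74 times the lowest uninduced and 1.61 times induced. NUF2 had the second largest difference of all members (-2.64), with bounds of 17.5 to 102 and 0 to 19.6 FPKM. SKA1 and SKA3, which track microtubule ends beside it, were at 23.5 and 8.30 and at 27.6 and 7.16 FPKM. The RZZ complex recruits checkpoint proteins and dynein. Its subunits KNTC1, or ROD (17.6 and 8.29 FPKM, difference -0.9997), and ZWILCH (35.7 and 16.3, -1.08) had the smallest differences of the group, and ZWINT, which links them to the kinetochore, was at 79.3 and 21.7 (-1.82).

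Spindle proteins that bind microtubules without being motors had a median of -2.17, and 2 of 5 fell. ASPM, which holds spindle poles together, fell from 29.98 FPKM (bounds 13.8 to 46.1) to 5.21 FPKM (1.59 to 8.83). TPX2, an activator of Aurora A that nucleates spindle microtubules, fell from 101 FPKM (49.8 to 152) to 31.6 FPKM (13.9 to 49.2). PRC1, the bundler of the central spindle, was at 159 and 34.5 FPKM, NUSAP1 at 91.7 and 31.4, and SPAG5, or astrin, at 45.8 and 9.21. SPAG5 shares its span with 9 other kept rows, and its lower bound was 0 in both columns.

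The 10 kinesins had a median of -1.64 and spread more widely than any other group but that of the shugoshins, from -2.70 to -0.35. KIF14, which acts in the midbody, fell from 12.2 FPKM (bounds 5.18 to 19.2) to 1.89 FPKM (0.257 to 3.52), the lowest induced level of all members. KIF20A, a midzone kinesin that brings PLK1 to the central spindle, had the largest difference of all 50, from 74.3 FPKM (14.8 to 134) to 10.6 FPKM (0 to 26.3), with bounds that overlap. KIF2C, or MCAK, which takes microtubule ends apart, was at 56.2 and 12.3 FPKM, and KIF4A, a chromosome-bound motor, at 26.7 and 6.16. The minus-end motor KIFC1 was at 46.8 and 14.4 FPKM, KIF23 of centralspindlin at 75.4 and 23.3, and KIF20B at 23.1 and 6.98. KIF11, or Eg5, which pushes spindle poles apart, was at 39.5 and 14.6 FPKM, and KIF15, which can stand in for it, at 11.6 and 4.83. KIF18A, which damps chromosome movements at metaphase, was at 21.9 FPKM (6.65 to 37.1) and 16.96 FPKM (4.24 to 29.7), a difference of -0.35.

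Of the 3 cytokinesis genes 1 fell. ANLN, or anillin, the scaffold of the contractile ring, fell from 161 FPKM (bounds 48.7 to 273) to 25.1 FPKM (7.44 to 42.7). RACGAP1 and KIF23 together form centralspindlin, and their levels were 88.1 and 75.4 FPKM uninduced and 22.8 and 23.3 induced. ECT2, the exchange factor that centralspindlin recruits to activate RhoA, was at 63.7 FPKM (18.1 to 109) and 34.3 FPKM (7.81 to 60.8), a difference of -0.87.

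The Aurora kinases and the chromosomal passenger complex had the largest median difference of the groups, -2.50, and 3 of 5 fell. AURKA, the kinase of centrosomes and spindle poles (chromosome 20, 54944445 to 54967393 in hg19), fell from 84.6 FPKM (bounds 35.25 to 134) to 12.8 FPKM (1.17 to 24.4). BIRC5, or survivin, fell from 86.2 FPKM (31.7 to 141) to 13.7 FPKM (1.27 to 26.1), and CDCA8, or borealin, from 48.3 FPKM (21.4 to 75.2) to 7.72 FPKM (1.23 to 14.2); these proteins target the complex to the centromere. AURKB, its kinase, was at 50.1 and 10.9 FPKM. INCENP, the scaffold that binds all of the others, was at 34.6 and 12.6 FPKM, the smallest difference of the group (-1.39). The 4 genes of the complex were 2.49-fold apart uninduced and 1.77-fold apart induced.

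In the group of shugoshins, separase, securin and PLK1 the median was -1.52. PLK1 and PTTG1 fell, and the differences of the shugoshins had opposite signs. PLK1, a kinase of mitotic entry, centrosomes and cytokinesis (chromosome 16, 23688977 to 23724821), fell from 103 FPKM (bounds 46.9 to 159) to 16.3 FPKM (3.09 to 29.6), the widest gap between bounds of any member, 1.59-fold. PTTG1, or securin, the inhibitor of separase and the most abundant member uninduced, fell from 203 FPKM (92.4 to 314) to 38.1 FPKM (6.90 to 69.3). ESPL1, separase itself, was the least abundant member uninduced, at 9.97 and 3.13 FPKM. SGOL1, the shugoshin that protects centromeric cohesin in mitosis, was at 14.1 FPKM (1.98 to 26.3) and 4.28 FPKM (0 to 8.85). SGOL2, its paralogue with a main part in meiosis, was at 30.2 FPKM (10.4 to 50.1) and 51.4 FPKM (15.3 to 87.5), the only member above 0 (0.75). The SGOL2 row (chromosome 2, 201353675 to 201448505) has the span of KCTD18, which was at 10.7 and 13.5 FPKM. Both shugoshins were 2.14-fold apart uninduced and 12.0-fold induced, with SGOL2 the higher in each column. The 12.0-fold ratio rests on an induced SGOL1 level whose lower bound was 0.

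Across roles the size of the difference varied. The uninduced FPKM was 3 to 5 times the induced in 27 of 50. It was 2 to 3 times the induced in 9, 1 to 2 times in 2 and lower than the induced in 1, SGOL2. In 8 it was more than 6 times the induced: KIF20A, NUF2, AURKA, KIF14, ANLN, PLK1, BIRC5 and CDCA8. The role medians ran from -2.50 for the Aurora group to -1.52 for the group of shugoshins, separase and PLK1. With 3 to 10 genes a group and wide bounds, an order of the groups was not tested. Members that held both kinds of motif and those that did not had similar medians. These were -1.84 for the 23 with CCAAT and a CHR-type match near the start and -1.85 for the other 19 with a promoter window. Of these 19 only CENPE and CENPI held neither kind, so members with and without any motif were not compared. SGOL2, KIF18A and ECT2 all hold both.

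Other genes of the pathway, were taken from 9 lists with 150 genes in the table. Of 144 kept, 114 were below 0, 42 at least 2-fold lower and 4 higher by that much, where 6.03% and 9.2% of all rows kept were. By their bounds 4 fell and 1 rose, where 0.454% and 0.726% of all rows kept did. Of the other kinetochore genes 24 of 25 were kept, with a median of -0.97, 11 at least 2-fold lower and 0 that fell. Among these SKA2, the third SKA subunit, was at 89.6 and 43.3 FPKM, and CENPB, which binds a centromeric DNA box, at 60.6 and 38.4. The 8 condensin genes, whose products compact mitotic chromosomes, were all below 0, with a median of -1.43 and 0 that fell. SMC4, a condensin ATPase, was at 149 and 56.2 FPKM and NCAPD2 at 61.9 and 20.3. The 13 cohesin genes, which also work in interphase, had a median of -0.19, with 2 at least 2-fold lower, 1 at least 2-fold higher and 0 that fell. RAD21, the subunit that separase cuts, was at 125 and 67.8 FPKM, and STAG2 at 39.4 and 43.0.

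Within the anaphase-promoting complex list 1 of 19 fell, and the median was -0.26. At least 2-fold lower were 4, CDC20, UBE2C (118 and 29.4 FPKM), UBE2S (208 and 72.5) and FBXO5 (35.7 and 17.1), and 0 were at least 2-fold higher. The gene that fell was CDC20, the mitotic activator on which checkpoint proteins act, from 156 FPKM (bounds 72.6 to 239) to 15.9 FPKM (3.09 to 28.7). Of the other spindle and centrosome genes 2 of 27 fell and 11 were at least 2-fold lower (median -0.75). DLGAP5, a partner of Aurora A on spindle fibres, fell from 69.6 to 11.7 FPKM, and GTSE1 from 34.9 to 7.64. In the other cytokinesis list 1 of 16 fell, CEP55, which recruits the abscission machinery to the midbody, from 70.8 to 12.8 FPKM, and the median was -0.30. Of that list 2 were at least 2-fold lower and 0 at least 2-fold higher.

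Kinesins that carry cargo in interphase were listed beside the mitotic ones. Of 18 listed 15 were kept, with a median of 0.26, 0 at least 2-fold lower and 3 at least 2-fold higher, and KIFAP3, the adaptor of kinesin-2, rose from 22.0 FPKM (bounds 7.49 to 36.4) to 80.9 FPKM (38.0 to 124). Of the 6 other mitotic kinesins 4 were kept, with a median of -1.09 and 0 that fell; KIF22 was at 59.3 and 19.1 FPKM and KIF2A, also active in interphase, at 33.9 and 29.6. Of the 18 transcription factors listed for mitotic promoters 0 rose or fell, and the median was -0.35. In this list 4 were at least 2-fold lower and 0 at least 2-fold higher, where 6.03% and 9.2% of all rows kept were. These 4 were FOXM1 (63.7 and 16.9 FPKM, lower bound 0 in both columns), E2F1 (19.2 and 7.44), RBL1 (13.6 and 5.16) and TFDP1. Of the other repressors and activators named above, MYBL2 was at 26.4 and 15.1 FPKM, E2F4 at 48.6 and 34.1 and RBL2 at 15.9 and 23.3. RBBP4, a histone-binding subunit of MuvB, was at 72.8 and 92.1 FPKM and TFDP1, the partner of E2F proteins, at 126 and 61.4.

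**Figure D4:**
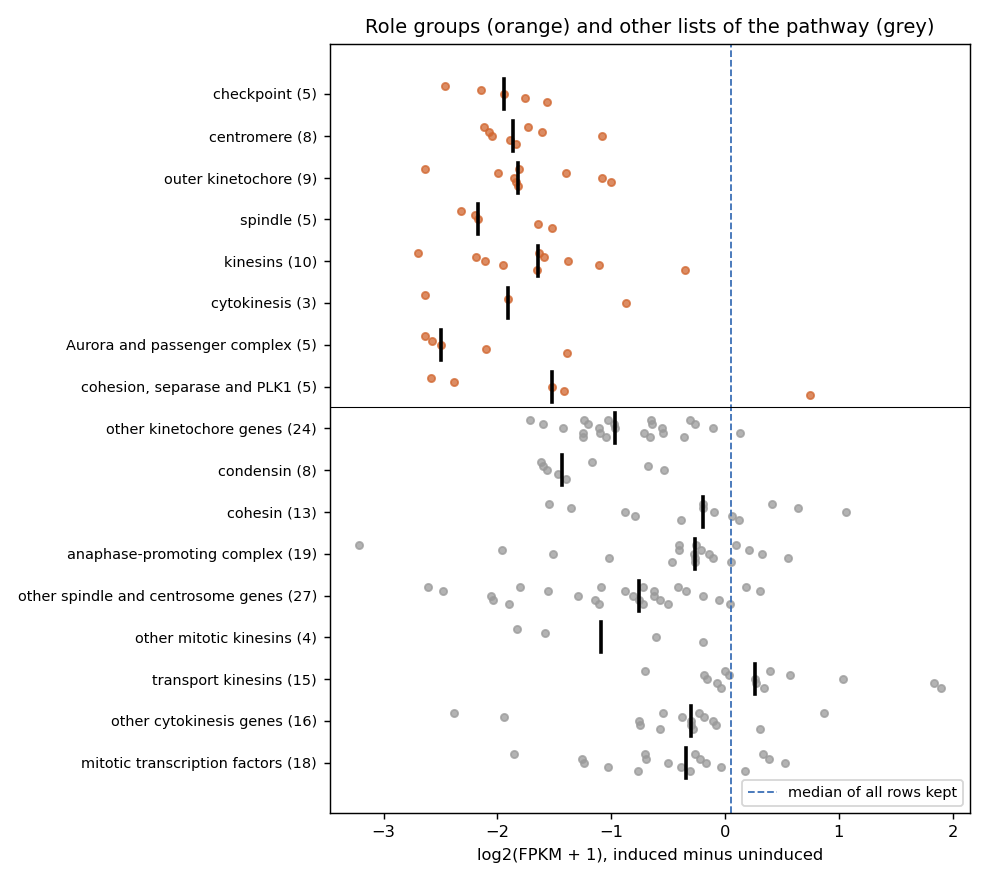
Difference in log2(FPKM + 1), induced minus uninduced (horizontal axis), for each member by role (orange) and for each kept gene of the other lists (grey), with the number of genes in brackets, bars at the medians and a dashed line at the median of all rows kept (0.05). The role medians lie between -2.50 and -1.52, and those of the other lists between -1.43 (condensin) and 0.26 (transport kinesins).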

How the data were processed

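RNA was measured in 4 samples, 2 uninduced and 2 induced. The submitters' processing notes name TopHat and the build hg19; which quantifier was run, with which version or filters, is not given in the sources used here. FPKM values with lower and upper bounds were deposited by the authors, per the file headers, in 1 column per group; whether a column pools both samples, and the level of the bounds, is not stated. A further 3 value columns that match no sample used here were left out. Columns were mapped to groups by name. Row starts, counted from 0 in the table, were raised by 1.

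Rows with at least 1 FPKM in either column were kept (14319). Differences are log2(FPKM + 1), induced minus uninduced, a scale that understates the change of low genes. A call needs bounds that do not overlap; 3 kept rows with bounds out of order were never called. The call code was tested on simulated data. Total reads are not in the table; among 2973 low rows with 1 start the most frequent ratio of induced to uninduced FPKM was 0.86, which, if it is the ratio of the worth of 1 fragment, gives the induced column 1.16 times the depth.

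The members, the lists and the rules were chosen with earlier results of these data known. The rule for named genes took FOXA2, every member, and for each list up to 4 called genes. Where none was called it took the 2 of highest mean FPKM. RPL4, PRC1-AS1, SGOL1-AS1, SPAG5-AS1, KCTD18, KIF4B, PTTG2 and the cell type markers were named after their values were seen. So were the levels of FOXM1, E2F1, RBL1, MYBL2, E2F4, RBL2, UBE2C, UBE2S and FBXO5. CENPC1 and MLF1IP, listed, matched no symbol. Promoters were RefSeq windows (GRCh38.p14), matched by symbol or synonym. No RefSeq protein table was used here. Alternatives were scaling, filter, pseudocount, summed rows and the looser criterion. Python 3.11.15, pandas 2.3.3 and matplotlib 3.10.9 were used.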

Additional observations from a re-analysis of the deposited data

How the results depend on the processing

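Median differences are counted as moved here when they shift by more than 0.1. Giving both columns an equal FPKM sum shifted the median of all rows kept from 0.05 to 0.24 and the member median to -1.67; relative to all rows it was -1.90 as deposited and -1.91 scaled. With that scaling the role medians were -1.75 (checkpoint), -1.70 (centromere), -1.63 (outer kinetochore), -1.98 (spindle), -1.46 (kinesins), -1.71 (cytokinesis), -2.32 (Aurora) and -1.36 (shugoshins, separase and PLK1). After quantile normalization those that moved were -1.99 (centromere), -2.05 (spindle) and -1.67 (shugoshins, separase and PLK1), and with a pseudocount of 0.1 FPKM -2.05 (centromere), -1.92 (outer kinetochore), -2.63 (Aurora) and -1.70 (shugoshins, separase and PLK1). The count of members that fell was 11 as deposited, 8 with equal sums (without TPX2, CENPE and ANLN), 10 after quantile normalization (without TPX2) and 26 with the interval of the difference. Dropping the filter on low values or asking for a mean of at least 5 FPKM could not move the member medians, role medians or count. All 50 members were kept under each of these settings. Only SPC25, SKA1 and KIFC1 had further rows, and summing these left their differences unchanged, so summed rows moved none of these medians. The count was not run on summed rows, whose bounds cannot be added. Every member kept its sign with equal sums, after quantile normalization and with summed rows. The filters, the pseudocount and the looser criterion could not change a sign. No paired analysis was possible because single samples have no column of their own; the replicate block and leaving out each replicate were not run for that reason. Total reads are unknown, and 19 of 50 members had an induced lower bound of 0, so bounds that overlap do not show that a gene stayed the same.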

Other observations

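Genes outside the 50 that carry the same promoter letters were counted as a description. Of 271 kept genes with CCAAT and with TTTGAA or TTTAAA within 50 bases of an annotated start, 42 (15.5%) were at least 2-fold lower after induction and 9 (3.32%) fell. Of the 9047 kept genes that held only one kind of match or neither, 458 (5.06%) were at least 2-fold lower and 27 (0.298%) fell. The median difference was 0.03 in both sets. Which of the 271 are cell cycle genes was not examined.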
